A study of Mus musculus with 6 samples.

Results

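The genes described here encode the laminin chains, the nidogens and perlecan, the glycoproteins that lie beside the collagens in a basement membrane. They were chosen by gene symbol, as *Lama2*, *Lama4*, *Lama5*, *Lamb1*, *Lamb2*, *Lamc1*, *Nid1*, *Nid2* and *Hspg2*, and make up 9 of the 46078 genes in the table of counts. RNA was sequenced from C2C12 cells, an immortalized line of mouse myoblasts that fuse into myotubes when serum is reduced, which were either *Hnrnpa2b1* KO or WT for the RNA-binding protein. All libraries came from cells differentiated for 48 hr by serum withdrawal with ITS supplement (the methods describe a change to medium with less serum, of horse), and each genotype had 3 libraries, called KO1 to KO3 and WT1 to WT3. The KO was made with Cas9 and an sgRNA on a plasmid carrying puromycin resistance, and the methods describe 3 clones of each genotype picked with a cloning ring, without stating which clone gave which library. If the 3 libraries of a genotype came from fewer clones, the p-values measure only the spread between those libraries.

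A laminin is a trimer of 1 alpha, 1 beta and 1 gamma chain. The alpha chain carries the domains that bind integrins and dystroglycan on the cell surface, and the gamma 1 chain carries the site to which nidogen binds. Nidogens and perlecan, a large heparan sulphate proteoglycan, link the laminin sheet to the collagen IV network. In adult muscle the main laminin of the fibre surface is 211, whose alpha 2 chain is encoded by *Lama2* and is missing in a form of congenital muscular dystrophy, while 221 with the beta 2 chain of *Lamb2* is found at the neuromuscular junction. The alpha 4 and alpha 5 chains form 411, 421, 511 and 521, which are known from vessels, the synapse and embryonic muscle.

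Each library had between 33605258 and 40558740 counted reads. Of the genes listed, 14828 passed edgeR's filter on low counts and were tested for KO over WT, and 3361 of them, 22.7%, had an adjusted p under 0.05 (edgeR's quasi-likelihood test, Benjamini-Hochberg adjustment over all tested genes). Calls higher in KO made up 12.1% of the genes tested and calls lower in KO 10.6%. *Hnrnpa2b1* RNA itself was at 159, 195 and 249 CPM (each gene's counts relative to the TMM-scaled library total) across KO1 to KO3 against 225, 229 and 252 across WT1 to WT3 (log2 fold change −0.23, adjusted p = 0.381), so its RNA level is no check of the label. The paper checked the KO clones for the protein, by immunofluorescence and Western blot. The summed CPM of 6 myoblast markers, mostly of *Myog* and *Des*, which were not called, were 3046 to 5306 in KO and 3924 to 4417 in WT. *Pax7* (1.52), *Myod1* (0.99) and *Cdh15* (0.70) were called higher in KO and *Myf5* (−1.503) lower. Those of 6 fibroblast and adipocyte markers were 63.3 to 116 in KO and 21.1 to 35.3 in WT, where *Dpt* and *Pdgfra* of 4 tested were called higher and *Adipoq* had at most 1 count. Different genes carried the sum, *Dcn*, not called, at 90.6 CPM in KO1, and *Dpt* at 56.3 CPM in KO2 and 34.98 CPM in KO3. Summed levels in KO and WT were 0.22 to 0.73 and 1.21 to 2.10 CPM for endothelial markers (1 of 2 tested of 5 called, *Kdr*, lower), 1.74 to 2.46 and 0.93 to 1.62 CPM for Schwann cell markers (1 of 2 tested of 5, *Mbp*, higher), and 2.79 to 4.11 and 2.22 to 2.81 CPM for macrophage markers (0 of 2 tested of 5, and 0 of these at an unadjusted p under 0.05), with *Pecam1* and *Ptprc* at or near 0. The part of these cell states in the results was not tested. From bulk RNA, fewer cells of a type and less RNA per cell cannot be told apart.

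All 9 genes passed the filter, and 2 of them, *Lama2* and *Lamb2*, were called lower in KO, with no gene called higher. This share of 22.2% was close to the 22.7% of all genes called in either direction and above the 10.6% called lower. The genotypes were without overlap in CPM for the same 2 of 9 genes (22.2%), both with KO below WT, which held for 44.3% of all tested genes in either direction and for 21.6% with KO below WT. In TPM limma also called these 2 of 9 genes, where it called 20.5% of 11691 genes in either direction and 11.9% lower in KO. The median log2 fold change over the 9 genes was −0.49 against 0.03 over all tested genes. By library, their median log2 difference from the WT mean was −0.63 for KO1, −0.80 for KO2 and 0.07 for KO3, the last within the −0.18 to 0.09 of the WT libraries. The alpha chain with the largest share in WT fell most, *Lama5* and the nidogens differed little in their means, and *Lamb1* had a positive and *Lamc1* and *Hspg2* a negative log2 fold change that did not pass.

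**Figure D1:**
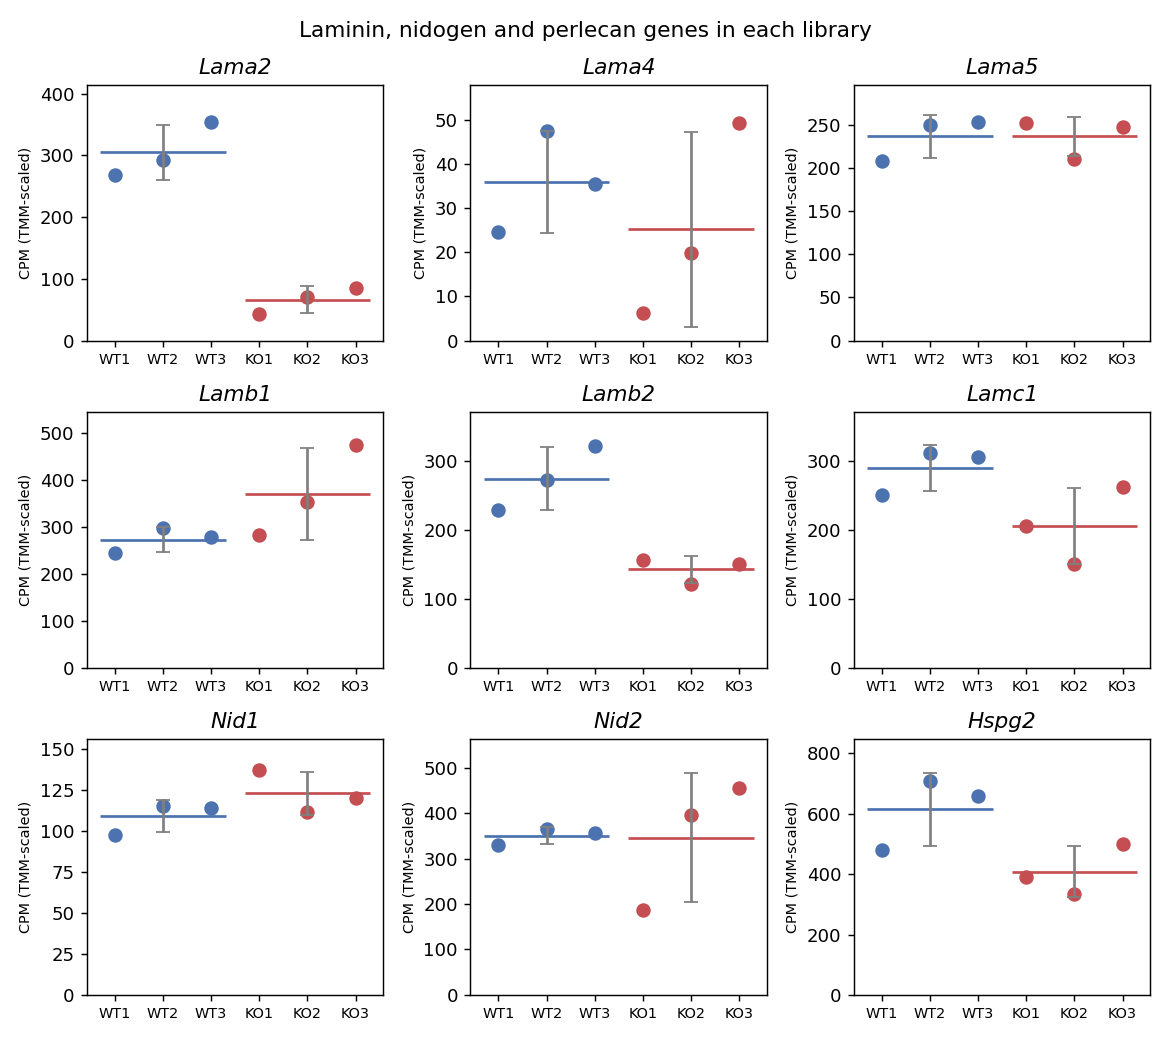
Level of each of the 9 genes in every library, in TMM-scaled CPM on a linear axis that starts at 0 and differs between panels. Points are libraries, horizontal lines the mean of the 3 libraries of a genotype and vertical bars its SD. Only *Lama2* and *Lamb2* had every KO library below every WT library, while KO1 to KO3 of *Lama4* and *Nid2* spread more widely than the WT libraries.

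The 250 bases before the RefSeq start were available for 6 of the 9 genes (build GRCm38.p6, not for *Lama4*, *Lamc1* and *Nid2*). They are printed here for the called genes and, for contrast, for the other alpha and beta chain with a window, *Lama5* and *Lamb1*, read 5′ to 3′ on the gene's strand at chr10:27616943-27617192 (minus, *Lama2*), chr9:108479612-108479861 (plus, *Lamb2*), chr2:180225860-180226109 (minus, *Lama5*) and chr12:31265043-31265292 (plus, *Lamb1*). Capitals mark the E-box letters CANNTG, the core that myogenic factors such as MyoD recognise, and the GC-box letters GGGCGG or, on the other strand, CCGCCC. The E-box letters read the same on both strands, and no printed E-box overlaps a GC box.
Lama2: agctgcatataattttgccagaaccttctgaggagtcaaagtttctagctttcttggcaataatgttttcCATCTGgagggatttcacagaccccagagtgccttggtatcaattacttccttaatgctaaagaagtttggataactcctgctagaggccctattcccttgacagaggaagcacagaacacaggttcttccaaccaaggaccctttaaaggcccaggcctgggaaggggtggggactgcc
Lamb2: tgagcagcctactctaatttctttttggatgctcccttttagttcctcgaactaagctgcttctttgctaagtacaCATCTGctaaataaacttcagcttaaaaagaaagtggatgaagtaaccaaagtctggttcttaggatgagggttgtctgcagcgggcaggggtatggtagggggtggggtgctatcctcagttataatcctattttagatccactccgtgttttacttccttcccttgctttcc
Lama5: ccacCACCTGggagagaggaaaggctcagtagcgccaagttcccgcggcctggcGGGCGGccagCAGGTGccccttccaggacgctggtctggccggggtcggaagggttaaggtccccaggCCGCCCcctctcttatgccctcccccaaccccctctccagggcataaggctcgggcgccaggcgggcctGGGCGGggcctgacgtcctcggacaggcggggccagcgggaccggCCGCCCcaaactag
Lamb1: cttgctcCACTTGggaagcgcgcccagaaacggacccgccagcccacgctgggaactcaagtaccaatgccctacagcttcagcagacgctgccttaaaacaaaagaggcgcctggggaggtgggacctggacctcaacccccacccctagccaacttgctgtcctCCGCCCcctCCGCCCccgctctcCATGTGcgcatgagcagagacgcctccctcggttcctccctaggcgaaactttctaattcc

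The windows of the 2 genes that fell were poorer in G and C than those of the other 4. GC content was 47.2% in *Lama2* and 43.6% in *Lamb2*, against 72.4% in *Lama5*, 62% in *Lamb1*, 64.4% in *Nid1* and 70% in *Hspg2*, where the median over 32851 mouse windows of this length was 52.4%. Of all windows, 32.4% had a GC content at or below that of *Lama2* and 21.1% one at or below that of *Lamb2*. CG dinucleotides numbered 0 in *Lama2* and 3 in *Lamb2*, and between 14 and 20 in the others, where the median over all windows was 6. *Lama2* and *Lamb2* each held 1 E-box and no GC box, while *Lama5* held 2 E-boxes and 4 GC boxes and *Lamb1* 2 of each. *Nid1* held no E-box and 1 GC box, and *Hspg2* no E-box and 5 GC boxes. E-box letters occurred in 66.2% of all windows and GC-box letters in 32.7%, so a match is a description of the letters and no more. The deposited gene spans begin elsewhere than the RefSeq starts in part. That of *Lama2* takes in its whole window, and those of *Lamb2*, *Lamb1* and *Hspg2* begin within theirs, so these windows also hold bases of the deposited span.

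*Lama2* (ENSMUSG00000019899, chr10:26980036-27619758, minus strand) encodes the alpha 2 chain of 211 and 221. Its level was 42.5, 69.9 and 85.4 CPM in KO1, KO2 and KO3, and 268, 292 and 354 CPM in WT1, WT2 and WT3. The highest KO library was thus well below the lowest WT library, and the KO libraries differed from each other by more than the WT libraries did in relative terms. The mean was 65.9 ± 21.7 CPM in KO and 305 ± 44.4 CPM in WT (SD, n = 3 each), a 4.62-fold lower level in KO. The log2 fold change was −2.21 (standard error 0.26, 95% interval −2.81 to −1.61, adjusted p = 0.00252, edgeR's quasi-likelihood test). In TPM, which is per transcript length, *Lama2* was at 2.81, 5.18 and 7.27 in KO and 20.2, 21.9 and 25.3 in WT, and the log2 difference was −2.01 (adjusted p = 0.00204, limma on log2(TPM + 1)). *Lama2* kept this call under all 13 alternatives run on the counts, with log2 fold changes of −2.43 to −1.85 and adjusted p of at most 0.0157.

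The 39 tested genes within 5 Mb of *Lama2* had a median log2 fold change of −0.32. With the median of its region removed as an offset the log2 fold change of *Lama2* was −1.85. The difference in *Lama2* was thus present in all KO libraries, exceeded the median shift of its neighbours, and was largest in KO1.

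*Lama4* (ENSMUSG00000019846, chr10:38965515-39110188, plus strand) encodes the alpha 4 chain of 411 and 421, which lacks the large amino-terminal domain of other alpha chains. It was at 6.32, 19.9 and 49.4 CPM across KO1 to KO3 and at 24.5, 47.6 and 35.5 CPM across WT1 to WT3. KO1 was the lowest and KO3 the highest of all 6 libraries, so the genotypes overlapped. The log2 fold change of −0.51 (standard error 0.62, 95% interval −1.93 to 0.92, adjusted p = 0.575, edgeR's quasi-likelihood test) had the widest interval of the 9 genes. *Lama4* gave −1.45 without KO3 and −0.06 without KO1, so its size rested on single KO libraries.

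*Lama5* (ENSMUSG00000015647, chr2:180176373-180225859, minus strand) encodes the alpha 5 chain of 511 and 521, the longest laminin chain and a strong ligand of integrins. Its CPM were 252, 210.5 and 248 across KO1 to KO3 and 208, 249.6 and 253 across WT1 to WT3. The 2 genotypes covered nearly the same range and their means were both 237 CPM. The log2 fold change was −0.00063 (standard error 0.15, 95% interval −0.34 to 0.34, adjusted p = 0.998, edgeR's quasi-likelihood test), which bounds a change in either direction at that interval. The 57 tested genes within 5 Mb of *Lama5* had a median of 0.47, and with the regional median removed *Lama5* was at −0.43 (adjusted p = 0.0686, where the alternatives spanned 0.0686 to 0.999).

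*Lamb1* (ENSMUSG00000002900, chr12:31265234-31329644, plus strand) encodes the beta 1 chain of 211, 411 and 511. It was at 283, 353 and 475 CPM across KO1 to KO3 and at 244, 298 and 278 CPM across WT1 to WT3. KO2 and KO3 were above every WT library and KO1 was within their range. KO over WT gave a log2 fold change of 0.44 (standard error 0.21, 95% interval −0.04 to 0.92, adjusted p = 0.156, edgeR's quasi-likelihood test). Without KO1 *Lamb1* passed the threshold, with a log2 fold change of 0.59 and an adjusted p of 0.0370 (0.0370 to 0.556 over the alternatives). Without KO3 it was at 0.22 (adjusted p = 0.396, edgeR), so its size rested on single KO libraries. The 31 tested genes within 5 Mb of *Lamb1* had a median log2 fold change of 0.29, and the 483 of its chromosome one of 0.39. With the regional median removed *Lamb1* was at 0.18.

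*Lamb2* (ENSMUSG00000052911, chr9:108479736-108490530, plus strand) encodes the beta 2 chain of 221, 421 and 521, the synaptic partner of the same alpha chains. Its level was 157, 121 and 151 CPM across KO1 to KO3 and 229.6, 273 and 322 CPM across WT1 to WT3. All KO libraries were below all WT libraries, with less spread among KO libraries than for *Lama2*. The mean was 143 ± 19.1 CPM in KO and 275 ± 46.1 CPM in WT (SD, n = 3 each), a 1.92-fold lower level in KO. The log2 fold change was −0.94 (standard error 0.17, 95% interval −1.35 to −0.54, adjusted p = 0.0101, edgeR's quasi-likelihood test), and the 140 tested genes within 5 Mb had a median of −0.11. In TPM *Lamb2* was at 17.3, 14.1 and 21.4 in KO and 28.5, 35.2 and 37.5 in WT, with a log2 difference of −0.91 (adjusted p = 0.0124, limma). On the counts *Lamb2* passed under all 13 alternatives (adjusted p of at most 0.0405), but in TPM it missed the threshold without WT3 (0.0559) and with no filter on low values (0.0607), where the alternatives spanned 0.00859 to 0.0607.

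*Lamc1* (ENSMUSG00000026478, chr1:153218922-153332786, minus strand) encodes the gamma 1 chain shared by all 6 trimers named above. It was at 205, 150.3 and 261 CPM across KO1 to KO3 and at 250.4, 311 and 305 CPM across WT1 to WT3. KO3 lay just above WT1, and KO1 and KO2 were below every WT library. KO over WT gave a log2 fold change of −0.49 (standard error 0.21, 95% interval −0.98 to 0.0018, adjusted p = 0.129, edgeR's quasi-likelihood test). In limma on TPM *Lamc1* passed only without KO3 (−0.81, adjusted p = 0.0257, with 0.0257 to 0.356 over the alternatives). Without KO2 it was at −0.30 in counts and −0.31 in TPM.

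*Nid1* (ENSMUSG00000005397, chr13:13437602-13512275, plus strand) encodes nidogen-1, which binds both laminin and collagen IV. It was at 137, 111 and 119.9 CPM across KO1 to KO3 and at 97.6, 115 and 114 CPM across WT1 to WT3. The ranges overlapped, and the log2 fold change was 0.17 (standard error 0.13, 95% interval −0.14 to 0.48, adjusted p = 0.374, edgeR's quasi-likelihood test). *Nid2* (ENSMUSG00000021806, chr14:19751257-19811787, plus strand), its paralog nidogen-2, was at 186, 397 and 455 CPM across KO1 to KO3 and at 329, 366 and 356 CPM across WT1 to WT3. KO1 was far below and KO2 and KO3 above every WT library, and the log2 fold change of *Nid2* was −0.02 (standard error 0.30, 95% interval −0.71 to 0.67, adjusted p = 0.969) and 0.27 without KO1. The end of *Nid2* overlaps 386 bases of *2700060E02Rik* on the other strand, which had 8929 to 12363 counts, and whether counting used strand is not given in the sources used here.

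*Hspg2* (ENSMUSG00000028763, chr4:137468769-137570630, plus strand) encodes the core protein of perlecan. It was at 392, 334 and 499 CPM across KO1 to KO3 and at 479, 709 and 658 CPM across WT1 to WT3. KO3 lay just above WT1, as for *Lamc1*, and the other KO libraries were below every WT library. The log2 fold change was −0.59 (standard error 0.22, 95% interval −1.10 to −0.09) with an unadjusted p of 0.0268 and an adjusted p of 0.0854, so *Hspg2* missed the threshold in edgeR's quasi-likelihood test. *Hspg2* passed it with DESeq2 (−0.62, adjusted p = 0.0320), with no filter on low counts (−0.62, 0.0288) and with the regional median removed (−0.73, 0.0494), where the alternatives spanned 0.0288 to 0.210. For single genes an exact two-sided permutation test of 3 libraries against 3 cannot go below p = 0.1, the value reached by *Lama2* and *Lamb2*.

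**Figure D2:**
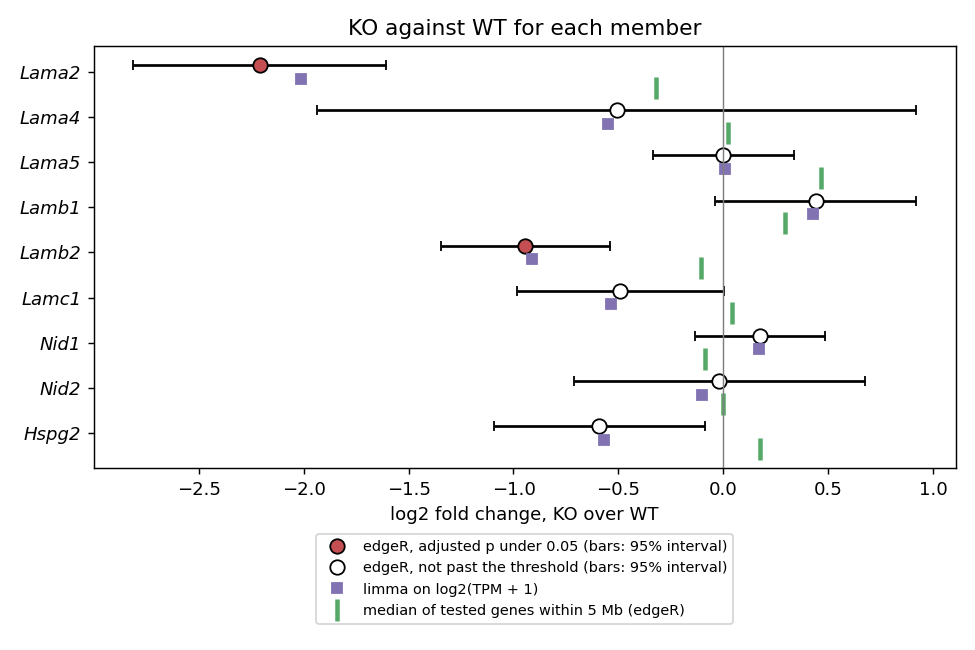
Log2 fold change of KO over WT for each gene, from edgeR on the counts (circles, filled where the adjusted p was under 0.05, bars the 95% interval) and from limma on log2(TPM + 1) (squares), with the median of the tested genes within 5 Mb (green lines). The intervals of *Lama2* (−2.81 to −1.61) and *Lamb2* (−1.35 to −0.54) lie below 0 and below the median of their neighbours, and the 2 measures give similar values for every gene.

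Levels were compared between genes in TPM, which divides by transcript length. In WT the order of the mean levels was *Nid2* (52.6 TPM), *Lamb2* (33.7), *Lamb1* (32.9), *Hspg2* (29.5), *Lamc1* (26.5), *Lama2* (22.4), *Lama5* (14.02), *Nid1* (12.9) and *Lama4* (4.08). Neighbours in this order overlapped between libraries except *Nid2* over *Lamb2*, *Lama2* over *Lama5* and *Nid1* over *Lama4*. In KO the order of TPM was *Nid2* (54.1), *Lamb1* (46.5), *Hspg2* (19.9), *Lamc1* (18.7), *Lamb2* (17.6), *Nid1* (14.6), *Lama5* (14.2), *Lama2* (5.09) and *Lama4* (3.10). Here only *Lamb1* over *Hspg2* and *Lama5* over *Lama2* did not overlap among neighbours. *Lama2* thus stood above *Lama5* in every WT library and below it in every KO library, and *Lamb2*, level with *Lamb1* in WT, stood below it in every KO library.

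These shifts are seen most directly as ratios within a library. The ratio of *Lama5* to *Lama2* in TPM was 4.90, 2.32 and 2.31 across KO1 to KO3 and 0.614, 0.714 and 0.555 across WT1 to WT3. The ratio of *Lamb1* to *Lamb2* was 1.82, 2.95 and 3.10 in KO and 1.06, 1.05 and 0.842 in WT. Neither ratio overlapped between genotypes. The ratio of *Nid2* to *Nid1* was 1.72 for KO1, 4.47 for KO2, 4.91 for KO3 and 3.95 to 4.23 in WT, so that KO1 alone had relatively little *Nid2*.

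Summed over the chains of a class, alpha chains (*Lama1* to *Lama5*) came to 17.2, 19.4 and 32.0 TPM across KO1 to KO3 and 35.6, 44.0 and 43.4 TPM across WT1 to WT3, with no overlap and a ratio of the means of 0.558. Beta chains (*Lamb1* to *Lamb3*) came to 57.8, 56.5 and 91.7 TPM in KO and 62.9, 76.3 and 72.2 TPM in WT, a ratio of 0.974 with overlapping ranges. *Lamc1*, the gamma chain of all trimers named here, was at 16.6, 12.8 and 26.7 TPM in KO and 24.7, 29.2 and 25.6 TPM in WT, also with overlap. The total of the alpha class was thus lower in every KO library, whereas the total of the beta class overlapped between genotypes. The alpha total is not separate from *Lama2*, which is part of it. Mean levels were 22.9 TPM in KO and 41.0 TPM in WT for the class, and 5.09 and 22.4 TPM for *Lama2*.

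Within the alpha class the share of *Lama2* was 16.3%, 26.8% and 22.7% across KO1 to KO3 and 56.7%, 49.6% and 58.3% across WT1 to WT3. That of *Lama5* was 79.7%, 62.0% and 52.3% in KO and 34.8%, 35.4% and 32.4% in WT. Since shares sum to 100%, the higher share of *Lama5* follows from the lower level of *Lama2* at nearly equal *Lama5*. Within the beta class *Lamb1* took 54.2%, 73.6% and 72.4% in KO and 47.9%, 48.4% and 43.7% in WT, and *Lamb2* took 29.9%, 24.9% and 23.4% in KO and 45.3%, 46.1% and 51.9% in WT. These shares are descriptions of RNA per length, and how many trimers of each kind the cells assembled was not measured.

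**Figure D3:**
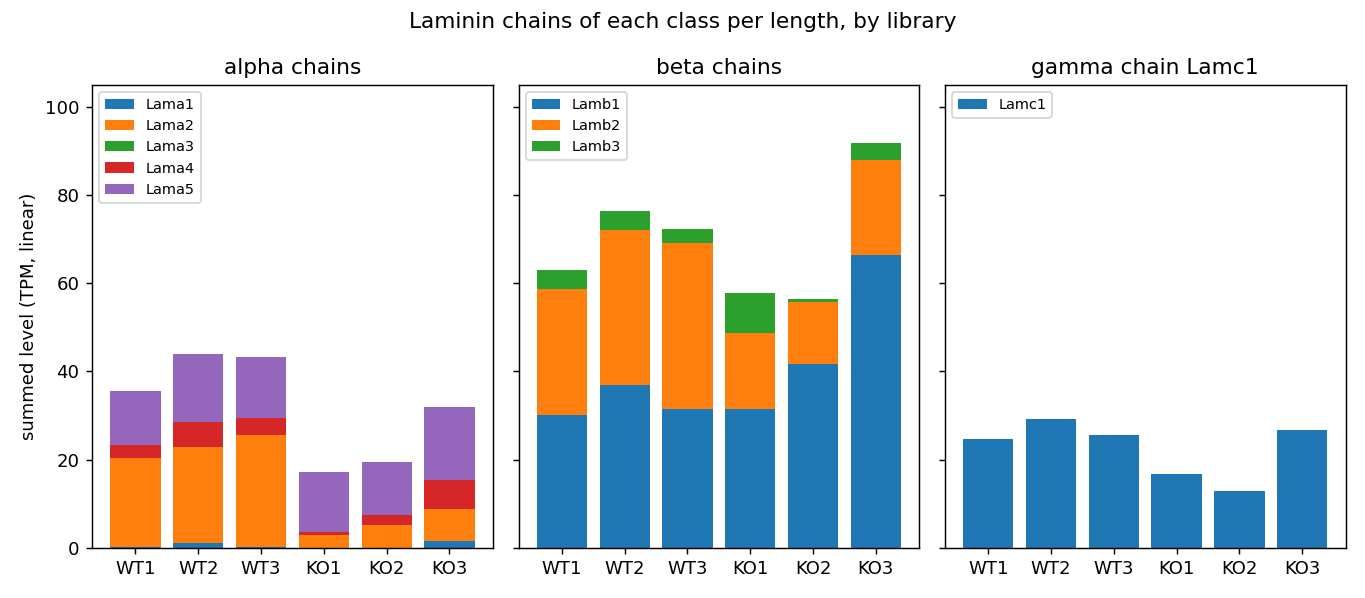
Level of the alpha and beta laminin chains, stacked by chain, and of *Lamc1* in every library, in TPM on a linear axis. The segment of *Lama2* shrinks from 20.2 to 25.3 TPM in WT to 2.81 to 7.27 TPM in KO with *Lama5* nearly constant, and *Lamb1* takes the larger part of the beta class in every KO library.

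The 9 genes also differed in how much they varied over the 6 libraries. The SD of log2 CPM was 1.29 for *Lama2*, 1.10 for *Lama4* and 0.55 for *Lamb2*, and 0.16 for *Nid1* and 0.13 for *Lama5*. Among the members, the closest profiles were those of *Lama5* and *Nid1* (root mean square difference of log2 CPM centred on the 6 libraries, 0.101) and of *Lamc1* and *Hspg2* (0.109). *Lama5* and *Nid1* had the smallest SD of the 9 genes, and by this measure profiles that vary little lie close whatever their shape. By the same measure over 6 libraries, the tested genes most like *Lama2* were *Slc8a1* (0.197), *Setbp1* (0.198) and *Itga2* (0.205), which was under 1 CPM in every library. Those most like *Lama4* were *Trib2* (0.176), *Lpar3* (0.288) and *Itga1* (0.291), and those most like *Lamb2* were *Gpr19* (0.0772), *Doc2g* (0.0829) and *1700123M08Rik* (0.0901). Most of these were low as well, *Trib2* and *Lpar3* at 0.36 to 2.77 CPM and the genes most like *Lamb2* at 0.50 to 2.51 CPM. *Doc2g* and *1700123M08Rik* were not called.

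Values of genes of myotube maturation stand here beside those of the laminins. Of 15 genes of mature myotubes, 3 were called lower in KO (*Actn2*, log2 fold change −2.94, adjusted p = 0.00212, *Myl1*, −2.39, 0.0297, and *Atp2a1*, −1.0002, 0.0470) and none higher, with a median of −0.83. This share of 20% was near the 22.7% of all tested genes called in either direction and above the 10.6% called lower, and in TPM limma called 5 of the 15 lower, where it called 11.9% of all genes lower. Relative to the WT mean, their median log2 difference came to −0.06 for KO1, −1.16 for KO2 and −1.13 for KO3, and the WT libraries gave 0.14, −0.34 and 0.24. The median of KO1 was thus within the range of the WT libraries, although *Actn2*, *Myl1* and *Atp2a1* were below every WT library in KO1 too, at 63.6, 634 and 771 CPM. Without KO1, 10 of the 15 maturation genes were called, and without KO2, KO3, WT1 or WT3 only 1. Over all tested genes the share called moved as well, to 30.6% without KO1 and to 17.7%, 13.9%, 6.01% and 8.43% without those libraries. *Myl1* was at −3.47 without KO1 and lost its call without KO2, KO3, WT1 or WT3, and *Atp2a1* lost it under 6 alternatives. The part of maturation in the levels of *Lama2* and *Lamb2* was not tested.

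Of the other laminin chain genes, *Lamb3*, a chain of epithelial laminin, had the highest level, with 59.7, 5.77 and 20.3 CPM across KO1 to KO3 and 22.2, 25.8 and 17.2 CPM across WT1 to WT3. It made up 15.9% of the beta class in KO1 and 1.48% to 6.80% in the other libraries. *Lamc3*, the gamma 3 chain, had 181, 41 and 61 counts across KO1 to KO3 and 3, 3 and 5 counts across WT1 to WT3, close to the floor of 3 counts set for a library. It was called higher in KO (fitted log2 fold change 4.52, adjusted p = 0.00764), by 3.48 without KO1. *Lamb3* and *Lama1*, the embryonic alpha chain, were tested and not called, and *Lama3* with at most 9 counts was not tested. *Lama1* was at 18.5 CPM in KO3 and at most 0.50 CPM in the other KO libraries, against 2.99 to 13.1 CPM in WT.

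Collagen IV forms the network to which nidogen and perlecan connect laminin. Of 8 basement membrane collagens 6 were tested and 0 were called with edgeR, against 22.7% of all tested genes. DESeq2 called 1, where it called 24.3% of all genes it tested. An unadjusted p under 0.05 in edgeR was reached by 0 of the 6 and by 5781 of all 14828 tested genes. The most abundant, *Col4a1*, was at 466, 937 and 1128 CPM across KO1 to KO3 and 560, 502 and 690 CPM across WT1 to WT3 (log2 fold change 0.53, adjusted p = 0.249, and 0.82 with an adjusted p of 0.0165 without KO1, where the alternatives spanned 0.0165 to 0.588). Without KO3 *Col4a1* was at 0.27 (adjusted p = 0.588, edgeR). *Col4a2* had a log2 fold change of 0.15 (adjusted p = 0.692). KO1 was the lowest and KO3 the highest library for both chains, and the genotypes overlapped.

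Other proteins of the basement membrane changed in both directions. Of 11 tested among 13, 5 were called higher in KO and 2 lower, with a median log2 fold change of 1.35. That is 63.6% of those tested, against 22.7% of all tested genes called. The list was chosen with earlier results of these data known, so this share cannot test for an excess of calls. *Tinagl1* (3.75, adjusted p = 0.00691), *Pxdn*, the peroxidase that crosslinks collagen IV (1.52, 0.0112), *Fbln2*, which binds laminin and nidogen (1.37, 0.0145), and *Smoc2* (1.84, 0.0192) rose, as did *Fbln1* (1.35, 0.0323). *Tinagl1* had 234, 111 and 63 counts in the KO libraries and 8, 11 and 8 in the WT libraries, so its fitted fold rests on few WT reads, and it was 2.96 without KO1. *Fras1* (−4.66, 0.000725) and *Frem1* (−3.51, 0.00540), which act in 1 complex under epithelia, fell from a low level, with 2 to 5 counts of *Frem1* in the KO libraries. The calls of *Pxdn*, *Fbln2* and *Smoc2* were lost without WT1, with adjusted p of 0.0612, 0.0789 and 0.0852. That of *Fbln2* was also lost without WT3 (0.0707), and that of *Smoc2* without WT2 (0.0541) or WT3 (0.0551). *Fbln1* was not called without WT1, WT2, WT3 or KO3, nor in TPM (0.0688, limma). In TPM limma called 3 of 7 tested genes of this list higher and 1 lower. The lower one was *Npnt* (−1.13, adjusted p = 0.0478), which missed the threshold in counts (−0.96, 0.138, edgeR).

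Receptors of laminin were tested for all 11 listed genes, and 4 were called higher in KO and 0 lower, with a median log2 fold change of 0.65. That is 36.4%, against 22.7% of all tested genes called, and the number called was 2 without WT1 and 7 with no filter on low counts. Over all genes 6.01% and 15% were called in those settings. This list too was chosen with earlier results known, so its share is no test of an excess. The syndecans *Sdc1* (1.69, adjusted p = 0.000640) and *Sdc4* (0.92, 0.0124), which bind laminin through heparan sulphate, the integrin chain *Itga3* (1.498, 0.00635), which pairs with beta 1 to bind 511, and its partner tetraspanin *Cd151* (0.79, 0.00870) rose. *Itga7* (−0.32, 0.343), the main laminin integrin chain of myotubes, *Itgb1* (−0.21, 0.544) and *Dag1*, dystroglycan (0.11, 0.770), did not pass. *Itga6*, another laminin integrin chain, was at 151, 30.6 and 45.9 CPM across KO1 to KO3 and 239, 208 and 229 CPM across WT1 to WT3, and missed the threshold in counts (−1.57, 0.0672) but passed it in TPM (0.0206, limma). *Sdc4* lies among genes with a median of 0.54 and lost its call with the regional median removed (0.42, adjusted p = 0.134, with 3.7e-05 to 0.134 over the alternatives), and also without WT1 or WT3, as *Cd151* did without WT1 (0.0612).

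**Figure D4:**
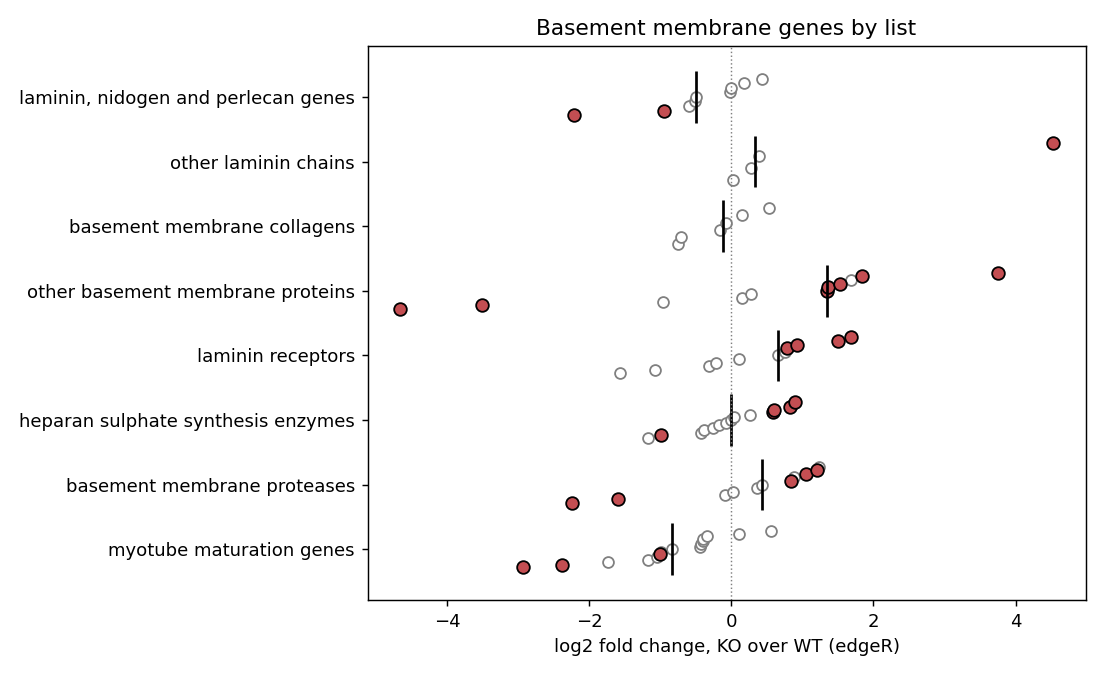
Log2 fold change of KO over WT (edgeR) of each tested gene, by list. Filled points had an adjusted p under 0.05, black lines are the median of a list. The laminin, nidogen and perlecan genes have a median of −0.49 and no filled point above 0, whereas the laminin receptors have a median of 0.65 and no filled point below 0.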

How the data were processed

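The 9 genes and all gene lists were chosen with earlier results of these data known. RNA of 3 KO and 3 WT libraries was measured as raw counts per gene, which the authors deposited as 1 merged table without normalization, and as TPM, which the authors deposited as 1 StringTie table for each library. Per the labels and the methods, reads were trimmed with Trim Galore, cleared of ribosomal RNA with SortMeRNA, aligned with STAR in nf-core/rnaseq and counted with featureCounts. Versions and the use of strand are not given in the sources used here. The processing notes name mm9 and the methods GRCm39, whereas 83.2% of 45137 gene identifiers shared with GENCODE vM21 have identical positions on GRCm38, so positions are on GRCm38. The study's own test was DESeq2.

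Here counts (33605258 to 40558740 a library, 0 columns unused) were TMM-scaled, filtered with filterByExpr and tested two-sided with edgeR 4.0.16 in R 4.3.3 (quasi-likelihood test, genotype alone, Benjamini-Hochberg adjustment, threshold 0.05). TPM, summed per gene, were tested with limma 3.58.1 on log2(TPM + 1) over 11691 genes with at least 1 TPM in 3 libraries. Fold changes on that scale understate those of low genes. Of a list, the genes called were named (at most the 4 with the lowest adjusted p in each direction, otherwise the 2 most abundant), and *Fbln1*, *Dpt*, *Itga6*, *Lamb3* and others that the rule left out were named after their values were seen. The 3 members with the largest SD were given their 3 most similar genes. Alternatives were DESeq2 1.42.0, RLE scaling, library totals, other filters, a regional offset (medians of neighbours), a replicate block, a pseudocount of 0.1 and leaving out each library. Library pairs of a genotype differed beyond counting noise, so none was counted as a repeat. The main fits of edgeR, limma and DESeq2 were tested on simulated counts, and the other steps were not. Promoter bases are RefSeq's. Some results for single genes of the lists are not reported here. Splicing and the other assays of the study were not analysed here.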

Additional observations from a re-analysis of the deposited data

How the results depend on the processing

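Over the 46 genes and measures with a test of their own, 478 of 561 comparisons with an alternative kept direction and call, 60 lost the call, 8 gained it and 15 changed sign. Of the alternatives, library totals alone moved the median of all tested genes to 0.15 and the calls to 2295 higher and 1174 lower (1796 and 1565 with TMM). The 9 genes gave 2 to 3 calls in counts under every alternative, where 6.01% to 30.6% of all genes were called. In TPM they gave 1 call with no filter, where limma called 3.94% of all genes. With a library left out they gave 1 to 4 in TPM, where limma called 4.21% to 27.6% of all genes. The share in limma's main fit was 20.5%. All changes of sign were of genes that missed the threshold. *Lama5* was at 0.11 with library totals, 0.019 with at least 1 CPM in 3 libraries, 0.00025 with the replicate block, and −0.095 to 0.081 with a library left out (−0.11 to 0.11 in TPM). *Nid2* was at 0.12, 0.0016 and, with the regional offset, 0.015, and at −0.26 to 0.27 with a library left out (−0.45 to 0.36 in TPM), and *Col4a2* at −0.16 to 0.34. With a library left out, calls numbered 1 to 2 among the other laminin chains, 0 to 1 among collagens, 3 to 8 among other basement membrane proteins, 2 to 5 among receptors, 0 to 2 among dystroglycan enzymes, 0 to 5 among heparan sulphate enzymes, 3 to 6 among proteases and 1 to 10 among maturation genes. Dystroglycan and heparan sulphate enzymes had 0 calls without WT1 and without WT3, where calls over all genes fell from 3361 to 933 and 1288, and the cause was not tested. With no filter on low counts, calls were 2 for collagens, 7 for receptors and 8 for maturation genes. Over all genes 15% were called there, against 22.7% in the main fit. DESeq2 called 1 collagen and the regional offset left 3 proteases, where 24.3% and 20.7% of all genes were called. The replicate numbers do not pair the libraries (r of the deviations of same-numbered libraries 0.137, −0.116 and 0.0041). With the replicate block *Lama2* was at −2.26 and *Lamb2* at −0.94, both still called, and 2520 of all genes were called. With 3 libraries a genotype, the 95% intervals of *Lama5* (−0.34 to 0.34) and *Nid2* (−0.71 to 0.67) bound what could be seen.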

Other observations

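Perlecan carries heparan sulphate chains, and 15 of 17 genes that build or trim these chains were tested. *Ext1*, a polymerase of the chain (log2 fold change 0.82, adjusted p = 0.0117, edgeR's quasi-likelihood test), *B3galt6*, of its linker (0.89, 0.0226), and the sulphotransferases *Ndst1* (0.60, 0.0236) and *Ndst2* (0.59, 0.0343) were called higher in KO, and *B3gat3*, another linker enzyme, lower (−0.99, 0.0468). *Ext1* was at 232, 194 and 216 CPM in KO1 to KO3 and 106, 145 and 113 CPM in WT1 to WT3, with no overlap. The median of the list was −0.0010, close to the 0.03 of all tested genes. The 5 calls are 33.3% of those tested, against 22.7% of all tested genes, and in TPM limma called 1 gene of the list higher and 1 lower. *B3galt6* (0.0536), *Ndst1* (0.0701) and *Ndst2* (0.0865) missed the threshold there. None of the 5 calls in counts held without WT1 or without WT3. As the list was chosen with earlier results known, its share of calls is a description only.

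Of 11 tested enzymes and inhibitors of basement membrane breakdown, 3 proteases were called higher in KO and 2 lower, where 12.1% and 10.6% of all tested genes were, with a median of 0.44. These counts are a description only, since this list was also chosen with earlier results known. The inhibitors *Timp2* (0.36, adjusted p = 0.145) and *Timp3* (1.24, 0.0734) did not pass. *Mmp14* (1.21, adjusted p = 0.00426), the membrane-bound protease that activates *Mmp2* (1.05, 0.0346), and *Bmp1*, a processing protease of collagens and laminins (0.84, 0.0214), rose. *Adamts5* (−2.24, 0.00254), a protease of proteoglycans, and *Plau*, the urokinase (−1.59, 0.0114), fell. *Mmp14* was at 405, 386 and 504 CPM in KO1 to KO3 and 163, 210.2 and 187 CPM in WT1 to WT3. *Adamts5* was at 15.3, 20.8 and 29.8 CPM in KO and 93.8, 129 and 88.7 CPM in WT. *Mmp14*, *Adamts5* and *Plau* kept their call under all 13 alternatives, while *Mmp2* lost it under 7 and *Bmp1* under 3, both with the regional median removed among them.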
